A study of Mus musculus with 4 samples.

Results

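The 8 genes described here encode proteins tied to the reading of methylated DNA: the methyl-CpG-binding domain genes Mbd1, Mbd2, Mbd3 and Mbd4, the zinc finger readers Zbtb33 (Kaiso), Zbtb4 and Zbtb38, and Zfp57. They were found by gene symbol in a table of raw read counts for 31247 genes, and all 8 were present. RNA came from cells carrying a Pdgfrb-GFP reporter isolated by flow sorting from lungs of mice on postnatal day 7, which the labels call myofibroblasts. The wild-type (WT) group had 2 libraries, labelled as wild type with PDGFRb-GFP. The Dnmt1 conditional knockout (CKO) group had 2 libraries, labelled with PDGFRb-GFP, the transgenes Tbx4-rtTA and Tet-O-Cre, and Dnmt1-D/D, so that a tetracycline-dependent Cre follows the mesenchymal Tbx4 element. The reporter is shared by both genotypes, whereas the rtTA and Cre transgenes are listed for CKO alone. The timing of the inducer is not given in the sources used here. The protocol names 2 lungs of each genotype and does not say whether litters or sexes were matched, so a p-value here reflects only how far these libraries spread, which may be technical. Each library is called WT or CKO with a letter, A or B, that follows the order of the columns and pairs nothing.

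Methylation of cytosine in CpG pairs is copied after replication by Dnmt1 and is read by proteins that bind the methylated base and bring in repressors. The MBD proteins share a methyl-CpG-binding fold. Mbd2 and Mbd3 sit in the nucleosome remodelling and deacetylase complex NuRD, Mbd1 works with the histone methyltransferase Setdb1, and Mbd4 is a DNA glycosylase that removes thymine or uracil left by deamination at CpG. Mammalian Mbd3 itself binds methylated DNA poorly. The Zbtb proteins bind methylated CpG through zinc fingers, and Zfp57 is a KRAB zinc finger protein that binds a methylated hexamer at imprinting control regions and, through Trim28, keeps their methylation after fertilisation.

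Zfp57 was 1.84-fold lower in CKO and was the 1 gene of the 8 to pass the test. The other 7 did not pass, and the intervals of their changes leave out a 2-fold shift in either direction. The sequence before the first start of Zfp57 is shown because it is the gene that changed, and that of Zbtb33 as a CpG-rich reader promoter for comparison. Promoter sequence was taken from RefSeq on GRCm38.p6 as the 250 bases before each start, which matched 6 of the 8 genes (Mbd3, Mbd4, Zbtb33, Zbtb38, Zbtb4 and Zfp57) and 10 starts. Mbd1 and Mbd2 were not matched. The windows of Zfp57 and Zbtb33 are printed 5′ to 3′ on the plus strand with CpG in capitals.
Zfp57 start 1, chr17:37000913-37001162: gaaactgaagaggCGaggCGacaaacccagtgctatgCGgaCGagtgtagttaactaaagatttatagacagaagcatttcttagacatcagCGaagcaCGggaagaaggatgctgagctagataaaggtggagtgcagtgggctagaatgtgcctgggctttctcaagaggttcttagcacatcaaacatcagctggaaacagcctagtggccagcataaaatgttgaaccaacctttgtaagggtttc
Zbtb33 start, chrX:38189543-38189792: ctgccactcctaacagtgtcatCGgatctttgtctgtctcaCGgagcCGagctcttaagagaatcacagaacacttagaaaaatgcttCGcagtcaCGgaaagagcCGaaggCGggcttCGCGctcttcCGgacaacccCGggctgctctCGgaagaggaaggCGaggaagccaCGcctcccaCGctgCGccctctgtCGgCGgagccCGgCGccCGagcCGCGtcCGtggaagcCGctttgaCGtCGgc

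The windows before the 3 starts of Zfp57 held 6, 7 and 3 CpG pairs in 250 bases, against a median of 6 over the 32851 promoters of the table. The Zbtb33 window held 27 CpG pairs, and 91.4% of promoters had fewer. The other single-start members lay between them, with 22 for Mbd4, 14 for Mbd3 and 13 for Zbtb4. Zbtb38 had starts with 6, 31 and 23 CpG pairs. Counts were summed over whole genes, so the start in use cannot be read from them, and methylation was not measured.

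Depth ranged from 23071657 to 26420648 counted reads per library, and 1 read corresponded to 0.0377 to 0.0439 CPM (reads scaled to library size with TMM factors). WT B had reads on 27643 genes, more than the 21883 to 22532 of the other libraries. Dnmt1, the targeted gene, stood at 144 CPM (A) and 115 CPM (B) in WT and at 78.2 CPM (A) and 29.5 CPM (B) in CKO. Its log2 change of -1.27 ± 0.57 (SE) over 2 libraries of each genotype did not pass in edgeR (adjusted p = 0.31), while the authors' deposited table gives an adjusted p of 0.029. The CKO libraries therefore kept unequal amounts of Dnmt1 RNA, 60.3% and 22.8% of the WT mean, from counts over all exons. Which exons the knockout removes is not given in the sources used here. CKO A held 2494 reads of the Y-linked Ddx3y and the other 3 libraries held 0. By these reads male cells were seen in CKO A alone, so the genotypes were not matched for sex. Xist, the RNA of the inactive X chromosome, was present in all 4 libraries, at 849 and 671 CPM in WT and at 164 CPM (A) and 1081 CPM (B) in CKO, so CKO A carried both transcripts. The column names of WT B, CKO A and CKO B begin with the same number and that of WT A with another, and what the number marks is not given in the sources used here. Pdgfrb, whose reporter was sorted on, stood at 507 and 477 CPM in WT and 374 and 317 in CKO (edgeR adjusted p = 0.0546). All 10 lung mesenchyme markers were tested and 0 passed in edgeR, with 2 higher and 3 lower at an unadjusted p under 0.05. Log2 changes were above 0 for 7 and below 0 for 3. Their summed level was 65170 and 65670 CPM in WT and 75500 and 87590 in CKO, a sum that follows the most abundant markers.

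Across all genes 15210 were tested, of which 1157 (7.61%) passed at an adjusted p under 0.05 in edgeR's quasi-likelihood test, 419 (2.75%) lower and 738 (4.85%) higher in CKO. Among the 8 genes 1 was lower and 0 were higher. Their median log2 change was -0.06, beside -0.01 over all tested genes. CPM values of the genotypes did not overlap for 3 of the 8 (Mbd1, Zbtb4 and Zfp57), against 57.1% of all tested genes.

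Zfp57 (ENSMUSG00000036036, chromosome 17, 37001163 to 37010635) stood at 45.9 CPM (A) and 47.2 CPM (B) in WT and at 27.2 CPM (A) and 23.4 CPM (B) in CKO, from 1046, 1250, 714 and 542 reads. Both CKO libraries lay below both WT libraries, and the gap between genotypes was far wider than that between libraries of a genotype. The WT libraries differed by 1.03-fold and the CKO libraries by 1.16-fold, whereas the genotypes differed by 1.84-fold. On the log2 scale this was -0.88 ± 0.12 (SE, n = 2 per genotype), with a 95% interval of -1.16 to -0.60 (edgeR adjusted p = 0.00778). In the authors' deposited table its log2 fold change is -0.84, with an adjusted p of 0.000129. Without WT B the log2 change was -0.85 and the call was lost (edgeR adjusted p = 0.0574), the highest of 12 other fits, whose adjusted p went down to 1.97e-07. Among the 3 libraries whose names share a number, which is the fit without WT A, the log2 change was -0.89 and passed (edgeR adjusted p = 0.0267).

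Relative to the WT mean, Zfp57 was at 58.4% in CKO A and at 50.2% in CKO B. Its CKO libraries differed by 1.16-fold and their Dnmt1 levels by 2.65-fold, with CKO B the lower for both genes. The relation of Zfp57 to the level of Dnmt1 was not tested. In sorted bulk cells, fewer cells with the transcript and less transcript per cell cannot be told apart. Markers of other cells also differed between genotypes. Of the 8 tested leukocyte markers of 10 listed, 5 were higher in CKO, beside 4.85% of all tested genes, and 2 had log2 changes below 0. The summed level over the whole list was 20.9 and 26.4 CPM in WT and 48.1 and 43.6 in CKO. Itgam, a myeloid integrin gene, had 0 reads in WT B and in CKO B. Of 5 erythroid markers 2 were lower, beside 2.75% of all tested genes. Their summed levels were 22.8 and 30.2 CPM in WT and 14.05 and 7.42 in CKO, with no member at 0 in any library. No epithelial (8) or endothelial (6) marker passed in edgeR, with 0 and 1 at an unadjusted p under 0.05. The part of these cells in the change of Zfp57 was not tested.

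**Figure D1:**
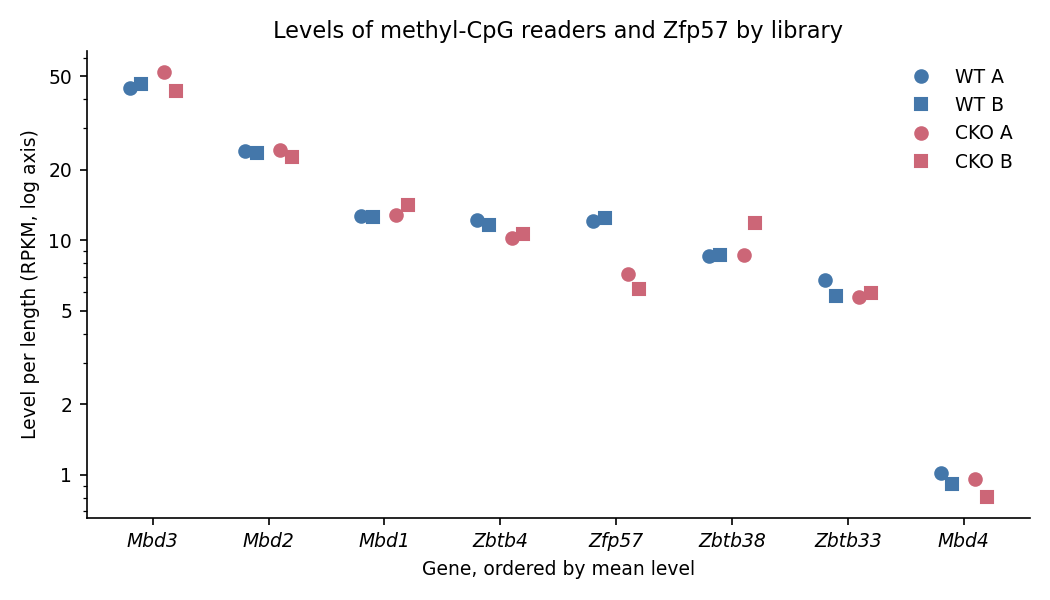
Levels per length of the 8 genes in each of the 4 libraries (RPKM over merged exons, log axis), with WT in blue, CKO in red, circles for library A and squares for library B. Zfp57 drops from 12.1 and 12.4 in WT to 7.18 and 6.18 in CKO, and Zbtb38 is raised in CKO B alone.

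Levels were compared between genes per kilobase of exon (RPKM), with each gene's exons merged over its annotated transcripts. Mbd3 was the most abundant of the 8, at 44.7 RPKM (A) and 46.1 RPKM (B) in WT and 52.1 RPKM (A) and 43.0 RPKM (B) in CKO. Mbd2 came next, between 22.6 and 24.3 RPKM, followed by Mbd1 between 12.5 and 14.1. These first 3 ranks were the same in all 4 libraries and their ranges did not meet. Zbtb4 (10.3 to 12.2 RPKM), Zfp57 (6.18 to 12.4) and Zbtb38 (8.58 to 11.9) overlapped in level. Their order differed between libraries: Zfp57 ranked 5 in WT A and 4 in WT B, and 6 in both CKO libraries. Zbtb33 (5.72 to 6.78 RPKM) ranked 7 and Mbd4 (0.809 to 1.02 RPKM) ranked 8 in every library. The deposited gene length counts an exon once for each transcript that holds it and was 1.62 (Mbd2) to 3.55 (Mbd3) times the merged length. With that length Mbd2 ranked above Mbd3 and Zfp57 ranked 7.

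The MBD genes were close to level between genotypes. Mbd1 (ENSMUSG00000024561, chromosome 18, 74267605 to 74282732), a reader that recruits H3K9 methylation, stood at 85.2 CPM (A) and 84.0 CPM (B) in WT and at 85.7 CPM (A) and 94.6 CPM (B) in CKO. Both CKO values lay above both WT values, but CKO A and WT A were nearly level. The log2 change was 0.09, with a 95% interval of -0.17 to 0.35 (edgeR adjusted p = 0.664).

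Mbd2 (ENSMUSG00000024513, chromosome 18, 70568189 to 70626131), the NuRD subunit with strong methyl-CpG binding, stood at 77.4 CPM (A) and 75.5 CPM (B) in WT and at 78.1 CPM (A) and 72.7 CPM (B) in CKO. The CKO values bracketed the WT values. Its log2 change of -0.02 was the smallest of the 8, with a 95% interval of -0.28 to 0.24 (edgeR adjusted p = 0.934).

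Mbd3 (ENSMUSG00000035478, chromosome 10, 80392539 to 80399550), the alternative NuRD subunit, stood at 88.7 CPM (A) and 91.7 CPM (B) in WT and at 104 CPM (A) and 85.5 CPM (B) in CKO. CKO A was the highest and CKO B the lowest of the 4 libraries. The log2 change was 0.07, with a 95% interval of -0.22 to 0.36 (edgeR adjusted p = 0.781), and leaving out CKO A made it -0.048.

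Mbd4 (ENSMUSG00000030322, chromosome 6, 115840697 to 115853371), the glycosylase, was measured from far fewer reads, 123 (A) and 128 (B) in WT and 134 (A) and 99 (B) in CKO, which is 5.40 and 4.83 CPM in WT and 5.10 and 4.27 CPM in CKO. The genotypes overlapped. The log2 change of -0.12 had the widest 95% interval of the 8, -0.66 to 0.41 (edgeR adjusted p = 0.782). The antisense gene Gm44206 overlaps Mbd4 over 1829 bases and had at most 1 read in a library.

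None of the 3 Zbtb readers passed. Zbtb38 (ENSMUSG00000040433, chromosome 9, 96682770 to 96752831), which binds single methylated CpG pairs, stood at 101 CPM (A) and 102 CPM (B) in WT and at 102 CPM (A) and 139 CPM (B) in CKO. WT A, WT B and CKO A were level and CKO B stood above them, at 138% of the WT mean. Its log2 change was 0.25, with a 95% interval of -0.11 to 0.61 (edgeR adjusted p = 0.358). Leaving out CKO A gave 0.49, which passed (edgeR adjusted p = 0.031), and leaving out CKO B gave 0.019 (adjusted p = 0.948). CKO B was also the library with the least Dnmt1 RNA, and with 1 such library the relation was not tested. The antisense gene A930006L05Rik overlaps Zbtb38 over 5622 bases and had 0 to 19 reads per library.

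Zbtb4 (ENSMUSG00000018750, chromosome 11, 69765912 to 69784023), a repressor that also binds methylated CpG, stood at 99.2 CPM (A) and 94.0 CPM (B) in WT and at 83.3 CPM (A) and 86.1 CPM (B) in CKO. Both CKO values lay below both WT values. The difference was small beside that of Zfp57, with a log2 change of -0.19, a 95% interval of -0.44 to 0.06 and no call (edgeR adjusted p = 0.322).

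Zbtb33 (ENSMUSG00000048047, chromosome X, 38189793 to 38197046), the Kaiso gene, stood at 34.7 CPM (A) and 29.6 CPM (B) in WT and at 29.3 CPM (A) and 30.6 CPM (B) in CKO. WT A was above the other 3, which were close together. The log2 change was -0.10, with a 95% interval of -0.40 to 0.19 (edgeR adjusted p = 0.668). Tmem255a overlaps it on the other strand over 474 bases and had 3 to 9 reads per library. CKO A, the library with Y-linked reads and the least Xist, was not set apart at this X-linked gene. The authors' deposited table likewise gives adjusted p-values of 0.664 or more for all 7 genes other than Zfp57.

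**Figure D2:**
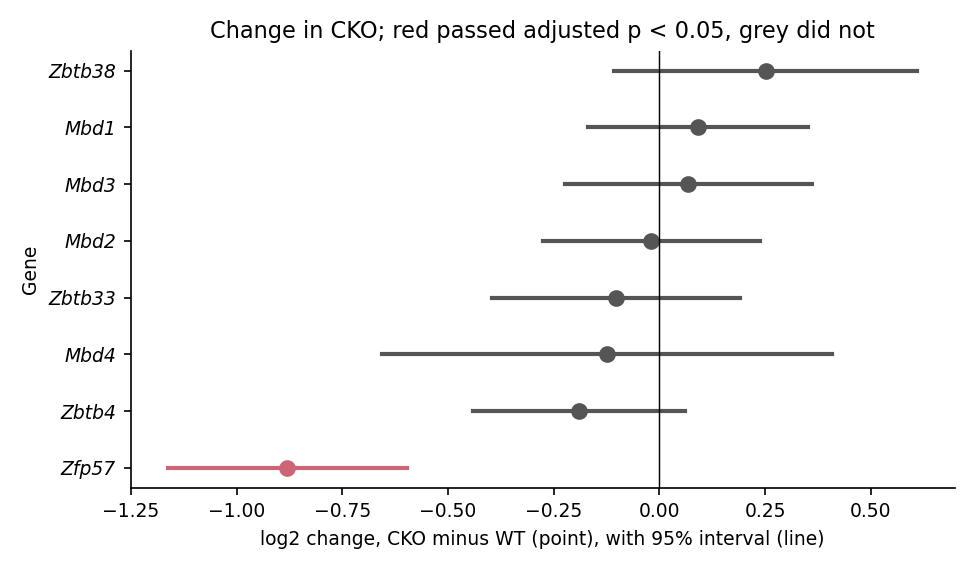
Fitted log2 change of CKO against WT (points) with 95% intervals (lines) for the 8 genes, n = 2 libraries per genotype. The interval of Zfp57, -1.16 to -0.60, lies wholly below 0 and those of the other 7 include 0.

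Partner genes were taken from 6 lists, and in 5 of them none passed in edgeR, beside 7.61% of all tested genes. The share of all tested genes at an unadjusted p under 0.05 was not computed and is at least that 7.61%. Counts at that unadjusted threshold, for these lists and for the markers above, therefore have no background beside them. Log2 changes were below 0 for 9 of 13 NuRD genes, 7 of 10 Zbtb33 partners, 9 of 11 Trim28 partners, 7 of 8 genes with related domains and 12 of 14 repair genes, beside 50.9% of all tested genes. Of 13 NuRD genes all were tested and 0 passed, with 1 at an unadjusted p under 0.05, and DESeq2 and limma-voom also called 0. Chd5, a remodelling subunit best known from neurons, stood at 0.659 and 1.02 CPM in WT and 1.75 and 3.11 in CKO (log2 change 1.52 ± 0.45, edgeR adjusted p = 0.0804). Next by p came Gatad2b (-0.26, adjusted p = 0.319) and the remodeller gene Chd3 (-0.19, adjusted p = 0.37), both subunits of the complex. The list median was -0.04.

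Of the 10 corepressor partners of Zbtb33, 0 passed in edgeR, DESeq2 or limma-voom, with 1 at an unadjusted p under 0.05 and a median of -0.01. That gene was Tbl1x, a subunit of the NCoR complex, at 170 and 147 CPM in WT and 128 and 123 in CKO (log2 change -0.34, edgeR adjusted p = 0.124). The catenin gene Ctnnd1, whose product p120 binds Kaiso, had -0.17 (adjusted p = 0.464) and the NCoR subunit gene Tbl1xr1 had -0.15 (adjusted p = 0.506).

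Of the 11 genes of the Trim28 pathway through which Zfp57 acts, 0 passed in edgeR or limma-voom, 3 were lower at an unadjusted p under 0.05, and the median was -0.10. Trim28, the KRAB corepressor, stood at 269 and 264 CPM in WT and 282 and 257 in CKO, a log2 change of 0.015. Zfp445, a KRAB zinc finger gene that shares the imprint-keeping role, stood at 92.7 and 90.9 CPM in WT and 80.7 and 85.7 in CKO (log2 change -0.14, edgeR adjusted p = 0.462). The genes with the lowest p were the chromatin remodeller gene Atrx (-0.41, adjusted p = 0.0731), the HP1 gene Cbx5 (-0.33) and the H3K9 methyltransferase gene Setdb1 (-0.31). DESeq2 called Atrx lower.

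Of 8 tested genes with other MBD or SRA domains, 0 passed in edgeR or limma-voom and 7 had log2 changes below 0, with a median of -0.29. Baz2a and Baz2b, remodelling factors whose MBD-like domains do not read methylation, had log2 changes of -0.41 and -0.43 (edgeR adjusted p = 0.0696 and 0.0765), and Setdb2, a methyltransferase gene, had 0.61 (adjusted p = 0.109). DESeq2 called Baz2a lower. At an unadjusted p under 0.05, 4 were lower and 1 was higher, and Setdb1 is in this list as well as in that of Trim28. Uhrf1, the SRA protein that guides Dnmt1 to hemimethylated DNA, stood at 67.5 and 51.9 CPM in WT and 51.9 and 51.5 in CKO (log2 change -0.21, edgeR adjusted p = 0.414).

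Of the 14 repair genes listed with Mbd4, 0 passed in edgeR, DESeq2 or limma-voom, 4 were lower at an unadjusted p under 0.05, and the median was -0.09. The DNA polymerase gene Polb (log2 change -0.42), the mismatch repair gene Msh6 (-0.37) and the glycosylase gene Neil3 (-0.50) had the lowest p (edgeR adjusted p = 0.0727, 0.11 and 0.126). Tdg, the other thymine glycosylase gene, stood at 49.9 and 51.5 CPM in WT and 54.4 and 48.0 in CKO, a log2 change of 0.014. Msh6 and Polb were called lower when CKO A was left out.

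**Figure D3:**
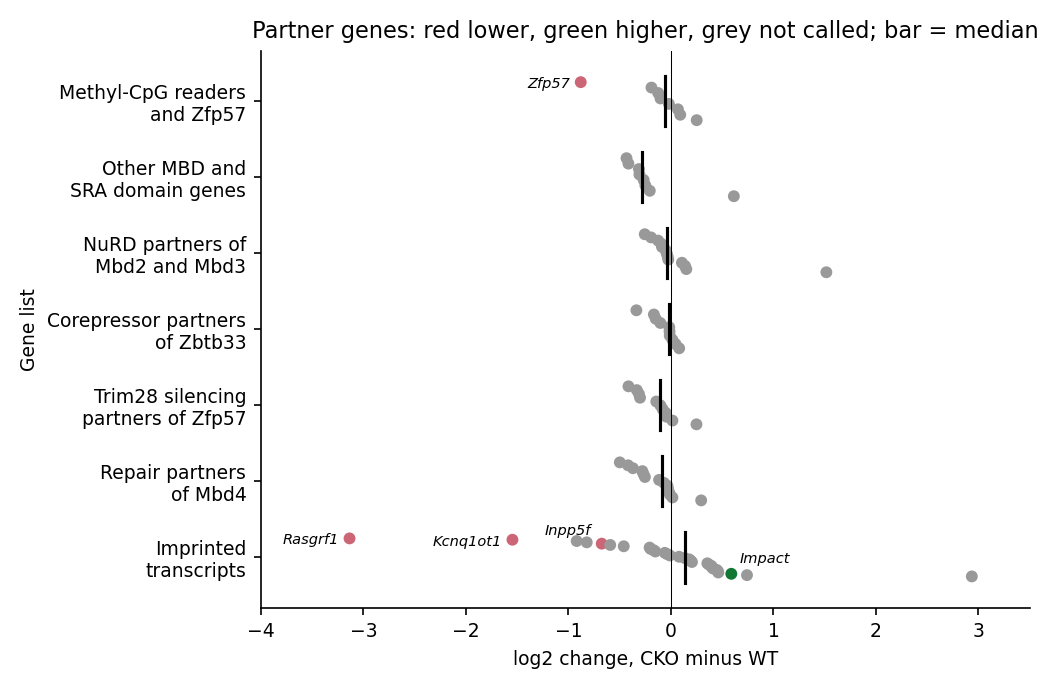
Log2 change of CKO against WT for each tested gene (points) in the 8 genes and the 6 partner lists, with red for lower, green for higher, grey for not called and a bar at the list median. Fkbp6, with 0 WT reads, is left out of the points. Called genes are Zfp57 and members of the imprinted list, whose values run in both directions.

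Genes with imprinted transcripts, whose control regions carry the methylation that Zfp57 recognises, moved in both directions. Their counts were summed over whole genes, so alleles and single transcripts of a gene cannot be told apart. Of 34 listed and 31 tested genes, 2 were higher (Fkbp6 and Impact) and 3 lower (Kcnq1ot1, Rasgrf1 and Inpp5f) in edgeR, with a median log2 change of 0.13, the same with Fkbp6 set to the lower bound of its change. That is 5 of 31, beside the 7.61% of all tested genes.

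Fkbp6, a meiotic gene (chromosome 5, 135291704 to 135350044), had no read in either WT library, and 71 reads (A) and 118 reads (B) in CKO. With 3 reads over the WT group as the limit that 0 allows, it was at least 62.8-fold higher in CKO (edgeR adjusted p = 0.00382), a limit for counting error only. Rasgrf1, a Ras exchange factor gene (chromosome 9, 89909908 to 90026977), stood at 3.995 CPM in WT A and 3.77 in WT B and at 0.685 and 0.173 in CKO A and CKO B, 8.78-fold lower (edgeR adjusted p = 0.0149). Kcnq1ot1, the long non-coding RNA antisense to Kcnq1 (chromosome 7, 143203458 to 143296549), stood at 37.5 and 57.5 CPM in WT and 14.9 and 17.6 in CKO, 2.92-fold lower (edgeR adjusted p = 0.0135). The counting is not stated to use strand, so its reads and those of Kcnq1 cannot be told apart. Inpp5f, a phosphatase gene, fell by 0.68 on the log2 scale (edgeR adjusted p = 0.0206). Impact, a translation regulator gene, rose by 0.59 (edgeR adjusted p = 0.0449) and lost its call in 7 of 12 other fits. None of these genes but Fkbp6 kept its call in every fit with 1 library left out: Impact passed without CKO A alone, Kcnq1ot1 without WT A and without WT B, Inpp5f without CKO A and without CKO B, and Rasgrf1 in all but the fit without WT B. H19, the non-coding RNA of the Igf2 locus, is given although it did not pass and was picked after its values were seen. It stood at 124 and 54.1 CPM in WT and 513 and 850 in CKO (edgeR adjusted p = 0.0803), and it was called higher in 4 of 12 other fits: in DESeq2, with robust estimation off, without WT A and without WT B.

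The hexamer TGCCGC, searched on both strands, is the core of the Zfp57 binding site when its CpG is methylated. It was found in the 250 bases before at least 1 start of 8 of the 27 matched imprinted genes. By start this was 10 of 42 (23.8%), beside 8.7% of all promoters of that length, and some windows of a gene overlap, so that a pair of Mest starts count the same hexamers. It contains a CpG, and among promoters with at least the median of 6 CpG pairs the shares were 10 of 31 (32.3%) and 15.4%. Of the called genes with a promoter, Fkbp6 held the hexamer in these 250 bases and Rasgrf1, Kcnq1ot1 and Inpp5f did not. Only these windows were searched and not the imprinting control regions as such. Whether those regions hold the hexamer cannot be read from this search. Fkbp6 has a pair of starts with overlapping windows, and each window holds a hexamer of its own, 163 and 86 bases before the start. The window of the upstream start is shown with the hexamer in capitals, on the minus strand.
Fkbp6 start 1, chr5:135350045-135350294: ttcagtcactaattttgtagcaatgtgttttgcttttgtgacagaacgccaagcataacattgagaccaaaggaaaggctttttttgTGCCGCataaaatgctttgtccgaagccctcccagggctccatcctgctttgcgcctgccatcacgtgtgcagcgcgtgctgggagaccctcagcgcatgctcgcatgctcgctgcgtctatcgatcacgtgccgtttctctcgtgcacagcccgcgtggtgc

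Among the 10 starts of the 6 matched readers, the hexamer lay before 1 start of Zbtb38 and before none of Zfp57. TCCTGCNA, a Kaiso site that requires no CpG, was searched on both strands and found before none of the 10, against 4.0% of all promoters. Sites that Kaiso would bind as a reader of methylated CpG were not searched. A match is a description of these letters and not of binding.

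Zfp57 lies in the region of the major histocompatibility complex, between H2-M5 and Mog. Of 19 genes in the table within 200 kb of it, 8 were tested and 2 were lower, beside 2.75% of all tested genes, with a median log2 change of -0.01. The window was chosen after the data had been seen. H2-M5, a class I-like gene that starts 11.6 kb before Zfp57 (chromosome 17, 36984061 to 36989537), stood at 1.76 CPM (A) and 1.74 CPM (B) in WT and at 0.266 CPM (A) and 0.474 CPM (B) in CKO. It was 4.70-fold lower (edgeR adjusted p = 0.0327), and lost its call without WT A, without WT B and without CKO A. Gabbr1, a GABA-B receptor gene that starts 44.8 kb after Zfp57 (chromosome 17, 37045966 to 37075067), stood at 71.6 and 94.0 CPM in WT and 46.2 and 48.1 in CKO. It was 1.76-fold lower (edgeR adjusted p = 0.0181), and lost its call without WT B (adjusted p = 0.111, against 9.44e-07 to 0.0354 in the other fits). Mog, the myelin gene between Zfp57 and Gabbr1, was low in all libraries (0.381 to 0.483 CPM) and did not pass.

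The same window around the other 7 genes held 70 tested neighbours, of which 3 were higher (Adamtsl5 beside Mbd3, and Atp1b2 and Kctd11 beside Zbtb4) and 1 was lower (Nlgn2 beside Zbtb4), beside 4.85% higher and 2.75% lower of all tested genes. Zbtb33 had no tested neighbour, and no tested neighbour of Mbd1, Mbd2, Mbd4 or Zbtb38 passed in edgeR.

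**Figure D4:**
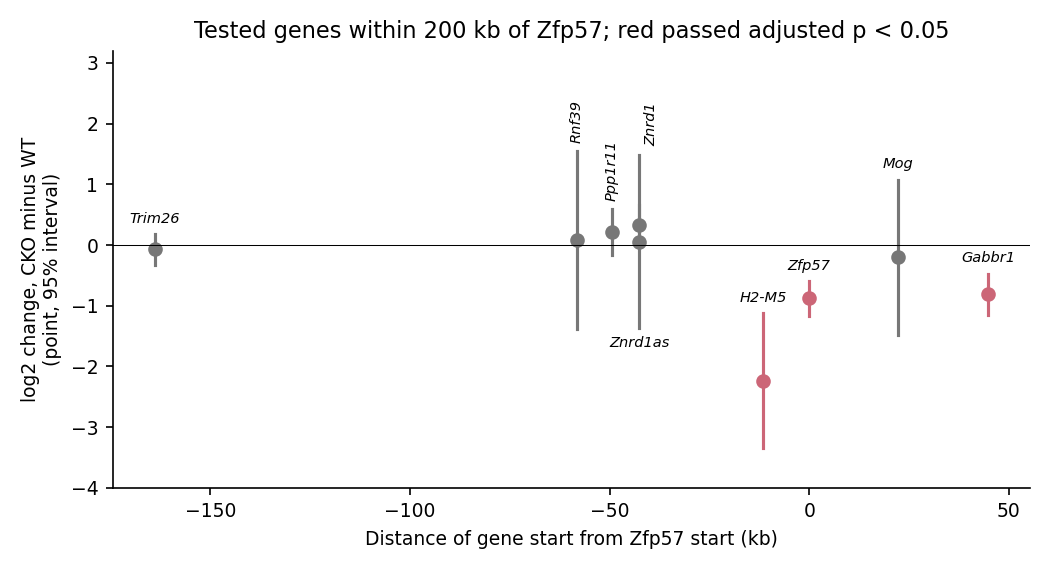
Log2 change of CKO against WT (points) with 95% intervals (lines) for Zfp57 and the 8 tested genes within 200 kb, placed by the distance of their start from that of Zfp57 in kb. H2-M5, Zfp57 and Gabbr1, in red, passed in edgeR, and the genes from Trim26 to Znrd1as and Mog did not.

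By profile over the 4 libraries, the named genes nearest to Zfp57 were Iqcb1, a cilium gene, at a Euclidean distance of 0.0372 between centred log2 CPM values, Ankrd24 at 0.0536 and Gpr173, an orphan receptor gene, at 0.0685. Their log2 changes were -0.90, -0.84 and -0.90, and each was lower in edgeR (adjusted p = 0.0243, 0.0141 and 0.0122). All 3 lost their call without WT A and without WT B, and Iqcb1 also without CKO B. They were chosen for likeness over 4 libraries, so their similar fall is a description.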

How the data were processed

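Per the labels' protocols, lungs were digested, GFP-positive live cells were sorted and total RNA was extracted. One table deposited by the authors holds raw counts for each gene. The submitters' processing notes list the build GRCm38.p6 and, without order or role, STAR, edgeR 3.28.1, Trimmomatic 0.36, cutadapt 2.5 and FastQC 0.11.8. How reads were assigned to genes, and whether by strand, is not given in the sources used here. Per the file headers, the authors also deposited log2 fold changes with p-values, raw and adjusted, which are quoted only where named. Another 4 columns of per-sample values were not used.

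Counts were fitted for 15210 genes in R 4.3.3 with edgeR 4.0.16 (filterByExpr with a minimum count of 10, TMM, glmQLFit and glmQLFTest with robust estimation, Benjamini-Hochberg adjustment over all tested genes, threshold 0.05). Standard errors are the log2 change over the square root of F, and 95% intervals use the t distribution with the fit's degrees of freedom. RPKM was planned on the deposited gene length and was computed instead on exons merged from GENCODE M21, matched for 31171 genes (99.8%), because the deposited length equals the summed exons of all transcripts plus 1 base per exon for 98.5% of these. DESeq2 1.42.0, limma 3.58.1 (voom), other scalings, filters and thresholds, and fits without each library were run as alternatives. A fit of autosomal genes alone was chosen after seeing the data. The tests were tried on simulated data. There edgeR called 49 of 97 genes given a 2-fold change, 88 of 99 given a 4-fold change and 16 of 14711 given none. A gene that did not pass may therefore still differ. Members and lists were chosen with earlier results of these data known. All 8 members are named. From each list every called gene was named, or the 3 with the lowest p where none was, and for the member with the largest change the 3 nearest profiles, leaving out predicted genes. Other list genes named beside them were chosen after their values were seen.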

Additional observations from a re-analysis of the deposited data

How the results depend on the processing

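No paired analysis was possible because the count columns carry no replicate number, and the number that opens 3 of the 4 column names is shared by 1 WT and both CKO libraries, which forms no pairs. Zfp57 was lower in all 12 other fits, with log2 changes of -0.97 to -0.77 when 1 library was left out, and lost its call without WT B alone. The number of the 8 genes called lower was 0 to 1 and the number called higher was 0 to 1 with 1 library left out, the rise being Zbtb38 without CKO A. Leave-one-out log2 changes ran from 0.019 to 0.49 for Zbtb38, from -0.045 to 0.042 for Mbd2, from -0.048 to 0.21 for Mbd3, from -0.23 to 0.0078 for Mbd4 and from -0.21 to 0.0295 for Zbtb33. Mbd2 was also at 0.019 with no filter on low counts. None of these changes of sign passed the threshold. Over all genes, 1543 were higher and 916 lower with no filter, 199 and 42 at an adjusted p under 0.01, and 248 to 1289 higher and 91 to 553 lower with 1 library left out. The unfiltered fit moved the median of all genes to -0.09. In the lists, DESeq2 called 1 MBD or SRA gene and 1 Trim28 pathway gene lower, library size alone 1 and 1, and no filter 1 MBD or SRA gene lower and 1 NuRD gene higher. With 1 library left out, 0 to 1 NuRD genes were higher and 0 to 2 repair genes lower. Imprinted genes called higher numbered 4 in DESeq2, 1 in limma-voom, 1 with RLE size factors, 1 at a mean CPM of at least 1, 5 with no filter and 1 to 5 with 1 library left out. Those called lower numbered 6 with no filter and 1 to 4 with 1 library left out. The cause of these differences was not tested. With 2 libraries per genotype, leaving 1 out leaves its group with a single library that is assumed to vary like the others.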
